A study of Mus musculus with 18 samples.

Results

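The genes described here copy DNA and divide cells. They numbered 49, 25 that act at DNA replication (S phase genes) and 24 that act at mitosis, out of 52636 genes counted by RNA-seq in mouse epidermal cells. They were chosen by name and function, without a threshold on any value, but with earlier results of these data known. Every one of the 49 was found in the table, had at least 5 reads in each library and passed the filter on low counts in each comparison.

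Cells came from mock-treated skin, from tumor-adjacent skin exposed to DMBA and TPA (labelled Treated), and from papillomas (labelled Tumor). DMBA mutates epidermal cells, and repeated TPA, a phorbol ester, then drives their outgrowth. At each stage 1 group of mice was Zfp36 fl/fl, carrying floxed alleles, and the other was Zfp36 ΔK14, littermates in which a Cre driven by the human keratin 14 promoter removed Zfp36 from keratinocytes. Both were on a C57BL/6 background, and the floxed alleles were thus common to all groups. The protocol began in mice 8 weeks old, and the labels give no age for a single sample. Each of the 6 groups had 3 columns, but the columns of mock ΔK14 replicates 2 and 3 were identical and were counted once, which left 17 libraries. The labels name whole skin as the source, whereas the study's methods describe live cells sorted for EpCAM after exclusion of CD45, CD140a and CD31. Cre in the keratin 14 lineage leaves the gene intact in other cell types. Nothing in the labels ties a library to an animal, so p-values measure the spread between these libraries.

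Total counts ran from 2808550 to 9617985 a library. Zfp36, the targeted gene, was at 18.6, 12.9 and 10.1 CPM (reads of a gene per 1000000 reads of its library, with library sizes scaled by TMM) in the ΔK14 tumors and at 231, 177 and 242 CPM in the fl/fl tumors. Over all stages it lay between 152 and 716 CPM in fl/fl and between 10.1 and 38.6 CPM in ΔK14 libraries. Epcam was detected in all libraries at 87.9 to 466 CPM, and Ptprc, which encodes CD45, reached at most 1.51 CPM. Pdgfra, which encodes CD140a, lay between 0.502 and 24.7 CPM, and Pecam1, which encodes CD31, between 6.42 and 37 CPM. Low levels of these sort markers do not show that other cells were absent. Leukocyte genes summed to 17.9 CPM in mock ΔK14 replicate 1 and to 225 CPM in treated ΔK14 replicate 3, their lowest and highest sums. Cd74 gave 172 CPM of the latter. Fibroblast genes summed to between 31.2 and 1688 CPM. The cell source of these reads was not tested.

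Replication starts when a helicase ring of MCM proteins is loaded on DNA by CDC6 and is activated with CDC45 and the GINS proteins. Polymerases then copy both strands while PCNA holds them on the template and the ribonucleotide reductase made of RRM1 and RRM2 supplies the building blocks. Mitosis is driven by CDK1 with cyclins A and B, by Aurora and Polo kinases, and by kinesins that shape the spindle, while BUB1, BUB1B and TTK hold chromosomes until all are attached. In skin these genes are known from the basal layer of the epidermis and from the hair matrix, the dividing cells at the base of a growing follicle. In a bulk sample a smaller share of dividing cells and less of an mRNA in each cell cannot be told apart.

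The promoters of both classes carried different motifs. Windows from 250 bases before to 50 after the start site were available in RefSeq (GRCm38.p6) for 39 of the 49 genes. E2F sites (TTTCCCGC, TTTGGCGC, TTTCGCGC or TTTGCCGC on either strand), bound by the factors that open S phase, were in 40% of S phase genes, in 5.26% of mitosis genes and in 2.6% of 27025 genes. The CHR, the cell cycle homology region of mitotic promoters (TTTGAA or TTCGAA on either strand), was in 30% of S phase genes, 78.9% of mitosis genes and 21.7% of all genes. The CCAAT box bound by NF-Y (CCAAT on either strand) was in 70%, 89.5% and 41.1%, and a CHR with a CCAAT box in 25%, 78.9% and 9.65%. A match is a description of the letters and not a bound site. These 4 windows are printed because they show a replication promoter with E2F sites, a promoter holding all 3 motifs, a mitotic promoter with CHR and CCAAT boxes, and the promoter of the only member called with all libraries. Capitals mark the motifs, some of which overlap or touch, and each sequence reads 5′ to 3′ in the direction of its gene.
Mcm6 (chr1:128359656-128359955, minus strand): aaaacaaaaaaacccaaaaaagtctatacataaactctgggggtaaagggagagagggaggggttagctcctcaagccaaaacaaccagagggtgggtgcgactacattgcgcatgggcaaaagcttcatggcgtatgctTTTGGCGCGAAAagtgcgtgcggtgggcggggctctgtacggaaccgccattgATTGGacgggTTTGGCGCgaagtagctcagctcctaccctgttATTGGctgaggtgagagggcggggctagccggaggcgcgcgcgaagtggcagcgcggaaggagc
Cdk1 (chr10:69352863-69353162, minus strand): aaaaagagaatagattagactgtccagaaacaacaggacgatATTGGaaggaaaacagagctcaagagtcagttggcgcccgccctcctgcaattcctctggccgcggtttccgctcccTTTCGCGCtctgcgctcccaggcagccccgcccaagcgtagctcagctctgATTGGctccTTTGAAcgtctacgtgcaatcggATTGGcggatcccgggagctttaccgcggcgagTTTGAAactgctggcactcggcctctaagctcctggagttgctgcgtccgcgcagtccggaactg
Mki67 (chr7:135716330-135716629, minus strand): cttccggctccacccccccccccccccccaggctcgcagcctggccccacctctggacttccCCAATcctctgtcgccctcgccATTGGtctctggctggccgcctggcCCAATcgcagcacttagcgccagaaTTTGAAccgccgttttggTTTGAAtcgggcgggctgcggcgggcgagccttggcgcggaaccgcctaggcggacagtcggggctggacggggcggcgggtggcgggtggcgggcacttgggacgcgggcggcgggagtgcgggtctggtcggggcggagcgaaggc
E2f8 (chr7:48881547-48881846, minus strand): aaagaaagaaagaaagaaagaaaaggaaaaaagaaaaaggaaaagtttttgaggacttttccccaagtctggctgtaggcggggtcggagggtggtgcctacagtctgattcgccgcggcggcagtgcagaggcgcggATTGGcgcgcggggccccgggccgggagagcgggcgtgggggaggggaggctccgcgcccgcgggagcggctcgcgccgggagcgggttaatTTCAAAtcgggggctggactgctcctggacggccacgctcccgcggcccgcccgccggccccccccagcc

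**Figure D1:**
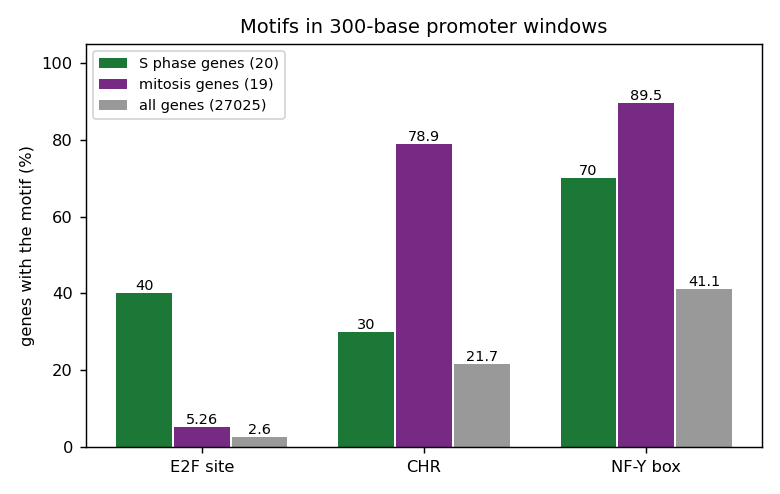
Share of genes (y axis, percent) whose promoter window held each motif (x axis), for S phase genes, mitosis genes and all genes with a window. E2F sites stand out in S phase genes at 40%, and the CHR in mitosis genes at 78.9% against 21.7% of all genes; the NF-Y box is the CCAAT box.

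Mcm6 in that set encodes a helicase subunit, and its window held E2F sites 110, 106 and 47 bases before the start site. The window of Cdk1, the kinase that starts mitosis, held 1 E2F site as well as CHR and CCAAT boxes. Of the 19 mitosis genes with a window, Cdk1 was the only 1 with an E2F site. Mki67, which encodes the proliferation antigen Ki-67, held CHR and CCAAT boxes. E2f8 encodes an atypical E2F that represses transcription, and its window held a CHR and a CCAAT box but none of the E2F letters searched.

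TTP, which Zfp36 encodes, shortens the life of mRNAs by binding AU-rich stretches of their 3′ ends. The heptamer TATTTAT was in the longest annotated 3′ untranslated region (GENCODE M21) of 13 of the 49 genes, 26.5%, against 27.6% of 20947 genes. S phase genes held it in 28% and mitosis genes in 25%. The sites of the called gene E2f8, of Mcm5 and of Ccnb1 are shown, with the heptamer in capitals. It began at base 560 of 618 in the untranslated region of E2f8, at base 565 of 1115 in that of Mcm5 and at base 425 of 1028 in that of Ccnb1.
E2f8: aaaaaaatTATTTATaaaatgta
Mcm5: cagggcttTATTTATagcaagtg
Ccnb1: tatgtaatTATTTATttgttctt

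The fitted differences between genotypes are given for genes with and without this heptamer as a description, with no test. In tumors, the median log2 difference of ΔK14 from fl/fl was 0.48 over the 13 genes with it and 0.41 over the 36 without. In treated skin the medians were 0.22 and 0.18. In mock skin they were 0.26 and 0.16. None of these genes was called between genotypes.

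On a scale of CPM per kilobase of exon, averaged over the 17 libraries, Pcna had the highest level at 69.7, followed by Mki67 at 41.1 and Rrm2 at 39.1. Pcna encodes the sliding clamp of the polymerases. Top2a, a topoisomerase that untangles chromosomes, stood at 38.1 and Ccnb2, a B-type cyclin, at 32.8. Mcm10, a replication initiation factor, was lowest at 1.98, next to Cdc6 at 2.25 and E2f1 at 3.44. The spread over libraries also differed between genes. Rrm2 ranged 24.5-fold between its lowest and highest library, Ccne1 21.8-fold and Uhrf1 17.2-fold, while Gins2 ranged 1.95-fold and Rfc3 2.23-fold.

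**Figure D2:**
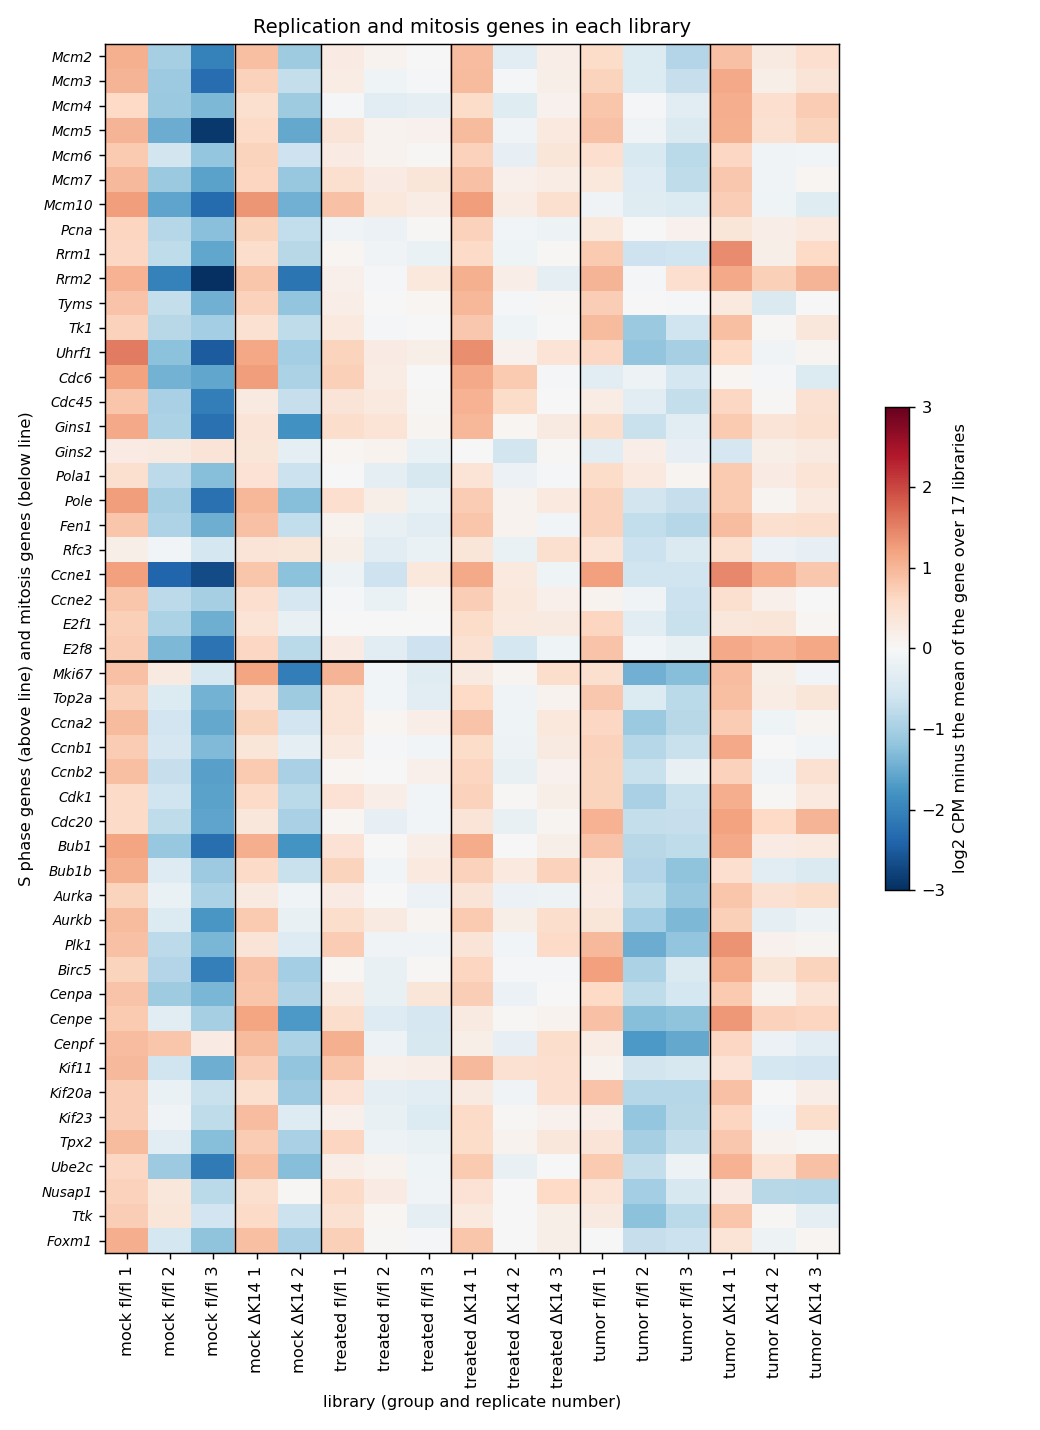
Each row is 1 of the 49 genes and each column 1 of the 17 libraries; color gives log2 CPM minus the mean of that gene over all libraries, with the scale ending at 3 in either direction (S phase genes above the black line, mitosis genes below). In mock fl/fl, 48 of 49 genes are highest in replicate 1, and the rows of Gins2 and Rfc3, with ranges of 1.95-fold and 2.23-fold, stay pale.

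In mock skin, libraries of 1 group differed in these genes more than the group means did. Replicate 1 had the highest mean level of S phase genes and of mitosis genes in all 6 groups. In mock fl/fl, 48 of 49 genes were highest in replicate 1, and in mock ΔK14 all 49. In treated skin the counts were 41 in fl/fl and 42 in ΔK14, and in tumors 47 and 46. The median gene ranged 4.82-fold within mock fl/fl and 2.96-fold within mock ΔK14. Within treated fl/fl it ranged 1.38-fold, within treated ΔK14 1.65-fold, within fl/fl tumors 2.63-fold and within ΔK14 tumors 1.67-fold. Over all 18252 genes that passed the filter across groups, 14.4% were more than 2-fold higher in mock fl/fl replicate 1 than in the mean of the others, against 92% of S phase genes and 83.3% of mitosis genes. In the fl/fl tumors the shares were 11.6% of all genes, 52% of S phase genes and 91.7% of mitosis genes. In the same order they were 15.9%, 84% and 83.3% in mock ΔK14. Elsewhere the excess was smaller or absent, at 1.34%, 0% and 8.33% in treated fl/fl and 3.86%, 16% and 4.17% in treated ΔK14. ΔK14 tumors had 3.65%, 4% and 12.5%.

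Averaged over the genes as mean log2 CPM, S phase genes were at 6.15, 4.25 and 3.55 in mock fl/fl and at 5.96 and 4.36 in mock ΔK14. Treated fl/fl skin held 5.53, 5.26 and 5.25, and treated ΔK14 skin 6.09, 5.29 and 5.40. Fl/fl tumors held 5.81, 4.92 and 4.81, and ΔK14 tumors 6.01, 5.50 and 5.60. The mock libraries thus spanned the whole range of the other groups.
Mitosis genes, on the same mean log2 scale, were at 6.36, 5.12 and 4.28 in mock fl/fl and at 6.24 and 4.66 in mock ΔK14. They were at 6.003, 5.48 and 5.44 in treated fl/fl skin and at 6.11, 5.50 and 5.80 in treated ΔK14 skin. Fl/fl tumors held 6.10, 4.57 and 4.72, and ΔK14 tumors 6.38, 5.57 and 5.69. Replicates 2 and 3 of the fl/fl tumors lay below every library of treated skin and of ΔK14 tumors in both classes.

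**Figure D3:**
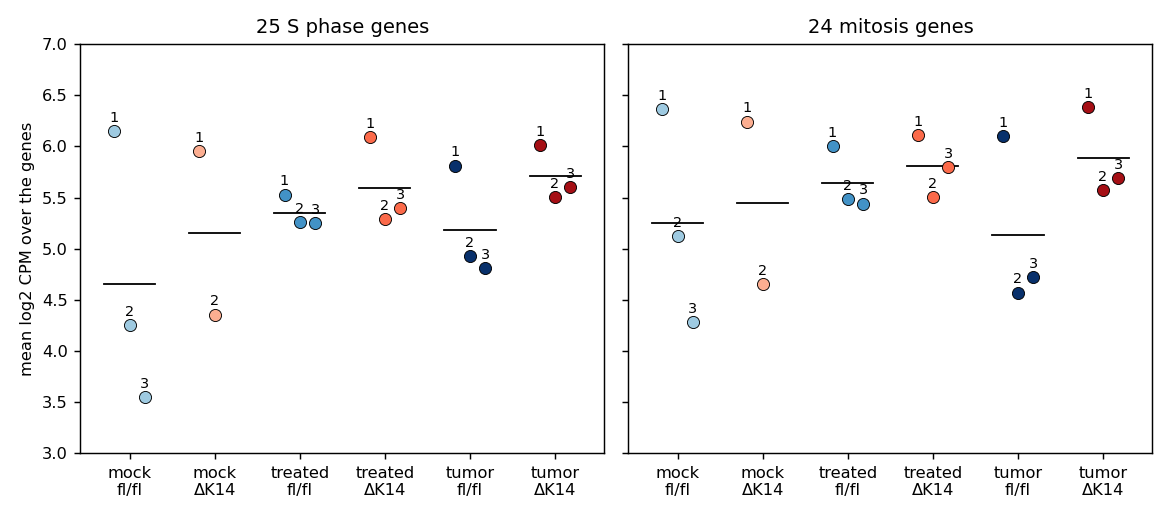
Mean log2 CPM (y axis) of the 25 S phase genes and of the 24 mitosis genes, 1 point a library, by group (x axis), with replicate numbers above the points and a line at the group mean. Mock libraries span 3.55 to 6.15 for S phase genes, and treated libraries 5.25 to 6.09.

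In mock skin, markers of the hair matrix moved with this spread. The summed CPM of 15 hair matrix and shaft genes was 3049 in mock fl/fl replicate 1 against 666.0 and 671 in the others, and 3023 in mock ΔK14 replicate 1 against 753 in the other library. Krt25, a keratin of the inner root sheath, was at 450, 0.982 and 0.483 CPM in mock fl/fl and at 639 and 1.80 CPM in mock ΔK14. Lef1, a Wnt effector of matrix cells, was at 199, 5.89 and 2.32 and at 194 and 3.61 CPM. Of the 15 genes, 14 were highest in replicate 1 in mock fl/fl and 13 in mock ΔK14. The 11 basal keratinocyte genes went the other way, with a sum of 4488 CPM in mock fl/fl replicate 1 and of 22410 and 24083 CPM in replicates 2 and 3. Melanocyte genes, which mark pigment cells of growing follicles, summed to 412 CPM in mock fl/fl replicate 1 and to 137 and 102 CPM in the others, whereas fibroblast genes summed to 1362, 1688 and 511 CPM. The sum over hair matrix genes was 928 to 2295 CPM in treated skin and 123 to 263 CPM in tumors. Gata3, 1 of these genes, was lower in replicate 1 of both mock groups. It was at 168, 621 and 632 CPM in mock fl/fl and at 201 and 702 CPM in mock ΔK14. Most of the sum in the other mock libraries thus came from Gata3, which was at 89.5 to 158 CPM in tumors. In ΔK14 tumors the hair matrix markers were low in every library while the mean levels of S phase and mitosis genes overlapped those of treated skin. The part of these cell types in the mock spread was not tested.

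**Figure D4:**
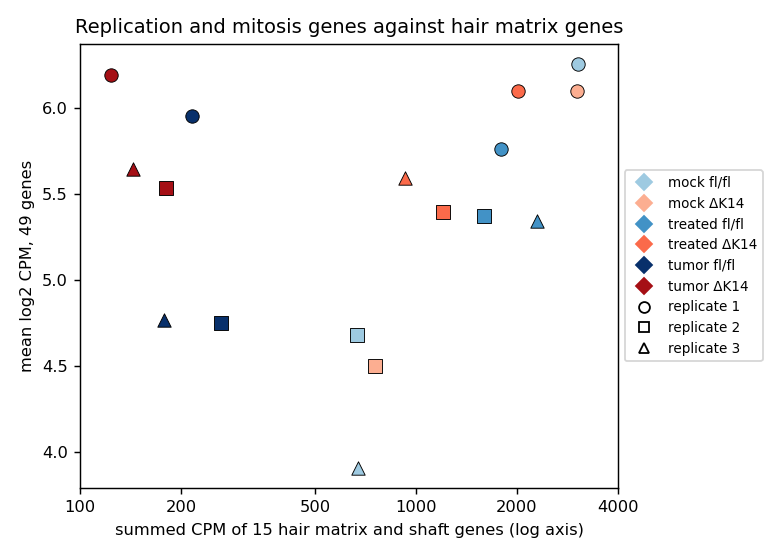
Mean log2 CPM over the 49 genes (y axis) against the summed CPM of 15 hair matrix and shaft genes (x axis, log scale), 1 point a library. Both mock replicate 1 libraries sit at the right with sums of 3023 and 3049, the other mock libraries between 666.0 and 753 are lower, and the tumors lie at the left. Gata3 alone gave 621 to 702 CPM in these other mock libraries and 89.5 to 158 CPM in tumors. The gap between them on the x axis rests largely on this gene.

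Mock skin with and without Zfp36 was compared first. No member was called (edgeR quasi-likelihood test, adjusted p under 0.05 and fold over 2), and 0% of 15920 genes were called at all. Zfp36, the gene removed in ΔK14, was thus not called either. The lack of calls among the members therefore does not show that their levels were equal. The median log2 difference of ΔK14 from fl/fl over the members was 0.19, against -0.03 over all genes, and 41 of 49 lay above 0. None had an unadjusted p under 0.05, against 1.59% of all genes. DESeq2 also called none of the members.

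Among S phase genes, Mcm2, a helicase subunit, was at 129, 30.8 and 14.9 CPM in mock fl/fl and 115 and 29.2 CPM in mock ΔK14. Mcm5, of the same ring, was at 131, 22.98 and 8.41 and at 96.9 and 22.4 CPM. Pcna was at 248, 87.01 and 66.4 and at 249 and 94.1 CPM. In each of these genes replicate 1 of either genotype was the high library. Rrm2, which limits the supply of deoxynucleotides, was at 172, 20.2 and 7.54 CPM in fl/fl and 149 and 18.02 CPM in ΔK14. Ccne1, the cyclin E that carries cells into S phase, was at 25.1, 1.77 and 1.35 and at 18.9 and 4.33 CPM. Ccne2, the second cyclin E, was at 49.3, 15.7 and 13.5 and at 38.98 and 19.1 CPM. The groups overlapped in all of them. E2f1, an activating E2F, was at 16.8, 5.11 and 3.48 CPM in fl/fl and 13.5 and 8.65 CPM in ΔK14.

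In mitosis genes replicate 1 was again the high library. Mki67 was at 654, 424 and 256 CPM in mock fl/fl and 804 and 83.3 CPM in mock ΔK14. Top2a was at 515, 238 and 117 and at 427 and 149 CPM. Ccnb1, the main mitotic cyclin, was at 77.7, 31.8 and 18.1 and at 58.5 and 37.1 CPM. The highest and the lowest ΔK14 library of Mki67 enclosed all fl/fl values. Cdk1 was at 44.5, 19.4 and 9.48 CPM in fl/fl and 44.4 and 16.9 CPM in ΔK14. Plk1, the Polo kinase, was at 28.3, 8.64 and 5.70 and at 20.03 and 11.5 CPM. Foxm1, a factor that transcribes mitosis genes, was at 61.05, 19.8 and 12.2 and at 53.6 and 14.4 CPM.

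The members with the smallest p between the mock groups differed little. Rfc3, a subunit of the clamp loader, was at 16.6, 13.9 and 10.1 CPM in fl/fl and 19.2 and 19.1 CPM in ΔK14, with a log2 difference of 0.49 ± 0.35 (SE). It was the only member whose mock groups did not overlap, where 6.97% of all genes did so in the higher direction. Gins2, a GINS subunit, was at 49.3, 49.9 and 54.3 and at 52.8 and 33.9 CPM. Fen1, a nuclease that trims Okazaki fragments, was at 49.2, 14.1 and 9.67 and at 50.6 and 16.2 CPM. Neither of these genes was called. Cenpf, a protein of the kinetochore, was at 121, 114 and 75.2 CPM in fl/fl and 122 and 32.8 CPM in ΔK14. Ube2c, an enzyme that tags mitotic proteins for destruction, was at 81.9, 24.9 and 12.1 and at 99.3 and 21.6 CPM. Birc5, or survivin, was at 44.7, 15.1 and 6.57 and at 51.4 and 13.7 CPM. In these mitosis genes the mock groups overlapped.

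In treated skin the genotypes overlapped in all but 2 of the 49 genes. Between them no member was called, and 0.00616% of 16232 genes were. The median log2 difference of ΔK14 from fl/fl was 0.19 over the members and 0.02 over all genes, and 45 of 49 members lay above 0. At an unadjusted p under 0.05 there was 1 member, Ccne2, against 5.55% of all genes. DESeq2 called none of the members.

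Ccne2 was at 26.6, 23.7 and 28.1 CPM in treated fl/fl and 45.8, 34.5 and 30.4 CPM in treated ΔK14, a log2 difference of 0.47 ± 0.20 (edgeR, adjusted p = 0.897). E2f1 was at 9.99, 10.3 and 10.1 and at 14.9, 12.4 and 12.3 CPM, a log2 difference of 0.36 ± 0.20. These were the members whose treated groups did not overlap, 2 of 49, where 5.77% of all genes were higher without overlap. Fen1 was at 29.6, 23.2 and 21.4 CPM in fl/fl and 49.3, 29.4 and 25.7 CPM in ΔK14. Ccne1 was at 9.45, 6.80 and 13.3 and at 23.7, 12.9 and 9.64 CPM. The ranges of both genes overlapped between genotypes.

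The other S phase genes of treated skin spanned less than in mock skin. Mcm2 was at 73.2, 66.2 and 60.8 CPM in fl/fl and 117, 49.2 and 71.01 CPM in ΔK14. Mcm5 was at 84.9, 69.95 and 71.5 and at 126, 60.4 and 79.5 CPM. In ΔK14, replicate 1 held the highest value of either gene. Pcna was at 146, 139.9 and 162 CPM in fl/fl and 255, 149 and 143 CPM in ΔK14. Rrm2 was at 93.2, 80.04 and 103 and at 176, 95.04 and 68.3 CPM.
The mitosis genes overlapped too. Mki67 was at 722, 336 and 273 CPM in fl/fl and 425, 372 and 509.9 CPM in ΔK14. Top2a was at 417, 298 and 249.7 and at 471, 292 and 339 CPM. Ccnb1 was at 55.5, 43.6 and 43.1 and at 66.4, 40.99 and 54.6 CPM. The fl/fl range of Mki67 enclosed every ΔK14 value. Cdk1 was at 40.6, 34.4 and 27.98 CPM in fl/fl and 47.9, 30.4 and 33.6 CPM in ΔK14. Plk1 was at 26.2, 14.03 and 14.1 and at 20.1, 14.5 and 22.8 CPM. Foxm1 was at 47.4, 29.4 and 27.6 and at 51.5, 28.6 and 32.3 CPM. None of these genes was called. Kif23, a kinesin of cytokinesis, had the smallest p among mitosis genes at 71.9, 55.3 and 48.2 CPM in fl/fl and 95.6, 65.7 and 69.8 CPM in ΔK14. Bub1b, a checkpoint kinase, was at 53.1, 31.4 and 40.3 and at 53.8, 40.9 and 53.6 CPM, and Birc5 at 29.6, 24.1 and 29.2 and at 44.5, 27.3 and 27.1 CPM.

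Treated skin was then compared with mock skin within each genotype. No member was called in fl/fl or in ΔK14, and 0% of 16601 and 0% of 15891 genes were called. At an unadjusted p under 0.05 no member passed in either, against 5.5% and 4.8% of all genes, and DESeq2 called none of the members. The median log2 difference of treated from mock skin was 0.18 in fl/fl and in ΔK14. It was above 0 in 42 of 49 members in fl/fl and in 41 in ΔK14. These comparisons share the treated and mock libraries with the ones between genotypes. Gins2 was the only member without overlap, lower in treated fl/fl skin at 43.2, 44.1 and 35.6 CPM than in mock fl/fl skin, where 4.81% of all genes were lower without overlap.

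In fl/fl, Mcm7, of the helicase ring, was at 182, 42.6 and 30.2 CPM in mock and 129, 109.6 and 120.03 CPM in treated skin, and Cdc45 at 25.5, 7.07 and 3.09 and at 18.8, 17.5 and 14.6 CPM. Both had mock replicate 1 above all treated libraries and mock replicates 2 and 3 below them. In ΔK14, Cdc45 was at 17.1 and 8.65 CPM in mock and 29.8, 20.9 and 14.2 CPM in treated skin. Gins1 was at 9.47 and 1.80 and at 14.7, 7.44 and 8.79 CPM. The groups overlapped in these genes too. Among mitosis genes in fl/fl, Cenpf was at 132, 57.2 and 45.2 CPM and Ube2c at 61.7, 57.02 and 48.6 CPM in treated skin, within the mock range for Ube2c. In ΔK14, Bub1b was at 49.3 and 20.5 CPM in mock and 53.8, 40.9 and 53.6 CPM in treated skin. Kif11, the kinesin that separates the spindle poles, was at 135 and 34.97 CPM in mock and 158, 110.05 and 114 CPM in treated ΔK14 skin.

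One library decided the count in fl/fl. Without mock fl/fl replicate 1, 32 of 49 members rose from mock to treated fl/fl skin, 19 S phase and 13 mitosis genes, with a background of 7.97% of 17103 genes called higher. Their log2 differences were highest for Rrm2, at 2.82, among S phase genes and for Bub1, a checkpoint kinase, at 1.95 among mitosis genes. The lowest was that of Mcm4, at 1.06. The median over S phase genes went from 0.20 to 1.61 and over mitosis genes from 0.17 to 1.10. Without the other libraries in turn, none was called. The library left out was the highest of mock fl/fl in 48 of 49 members, so a rise without it is partly built in.

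Tumors of fl/fl mice were compared with treated fl/fl skin. No member was called, where 18% of 15362 genes were, 7.5% higher and 10.5% lower. The median log2 difference was -0.12 over S phase genes and -0.47 over mitosis genes, against -0.02 over all genes, and 39 of 49 members lay below 0. An unadjusted p under 0.05 was reached by 5 members, against 40.3% of all genes, and DESeq2 called none of the members.

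Mcm10 was at 23.1, 15.3 and 14.4 CPM in treated and 11.5, 9.47 and 9.18 CPM in tumor fl/fl cells, a log2 difference of -0.86 ± 0.28 (edgeR, adjusted p = 0.0585). Cdc6 was at 16.6, 11.8 and 10.2 and at 8.03, 9.01 and 6.88 CPM, a difference of -0.72 ± 0.29. Kif11 was at 143, 89.5 and 92.96 and at 85.8, 54.7 and 57.03 CPM, a difference of -0.76 ± 0.27. In these genes all tumor libraries lay below all treated libraries, 3 of 49 members, where 24% of all genes did so. Pola1, the catalytic subunit of the priming polymerase, was the only member higher without overlap, at 81.3, 67.3 and 58.6 CPM in treated and 119.9, 99.9 and 86.5 CPM in tumor cells. For this direction 21.9% of all genes did not overlap. Foxm1 was at 29.1, 17.7 and 18.4 CPM in the tumors, a difference of -0.74 ± 0.30. Bub1b was at 40.6, 17.7 and 14.1 CPM, a difference of -0.86 ± 0.40. Neither gene was separate from treated skin in all libraries.

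In fl/fl tumors Mcm2 was at 90.3, 45.96 and 33.4 CPM, Mcm5 at 120.4, 60.01 and 48.2 CPM and Pcna at 195, 159 and 171 CPM. Rrm2 was at 169.6, 80.02 and 117 CPM, Ccne1 at 25.1, 6.87 and 6.88 CPM, Ccne2 at 29.6, 25.3 and 17.4 CPM and E2f1 at 16.1, 7.94 and 6.23 CPM. Replicate 1 was highest in each. Mki67 was at 493, 129 and 146 CPM, Top2a at 553, 237 and 180.3 CPM and Ccnb1 at 73.3, 25.04 and 28.5 CPM. Cdk1 was at 47.2, 14.96 and 18.7 CPM and Plk1 at 30.1, 5.19 and 6.56 CPM. In all 5 mitosis genes replicates 2 and 3 were below every treated fl/fl library.

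Sebaceous and basal keratinocyte markers also set fl/fl tumor replicate 1 apart from replicates 2 and 3. The sums over differentiated keratinocyte genes, at 2457, 1217 and 2821 CPM, and over hair matrix genes, at 215, 263 and 177 CPM, did not. The sum over 8 sebaceous gland genes was 220.3 CPM in replicate 1 and 3768 and 6889 CPM in replicates 2 and 3, while ΔK14 tumors held 160.5 to 234 CPM. Scd1, a lipid desaturase of sebocytes, was at 196, 3210 and 6080 CPM. The basal keratinocyte genes summed to 36204 CPM in replicate 1 and to 11117 and 10807 CPM in the others, against 29654 to 32306 CPM in ΔK14 tumors. Of the 11 basal genes 8 were highest and 2 lowest in replicate 1, and of the 8 sebaceous genes 6 were lowest there. Ccnd1, the cyclin D of the restriction point, was at 365, 43.2 and 55.7 CPM in fl/fl tumors and 342, 312 and 299 CPM in ΔK14 tumors. Zfp36 in replicate 1, at 231 CPM, was at the fl/fl level. This library also had the lowest total, 2808550 counts. The part of sebaceous cells or of depth in the difference was not tested.

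Without fl/fl tumor replicate 1, 13 of 49 members fell from treated to tumor fl/fl cells, 12 of them mitosis genes, against 13.8% of 17061 genes called lower. Uhrf1, a factor that maintains DNA methylation at the fork, was the S phase gene, with a log2 difference of -1.51. Among mitosis genes Ccna2, cyclin A, fell by 1.22, Mki67 fell by 1.71 and Cenpf, a kinetochore protein, fell by 1.98 on the log2 scale. The median over mitosis genes was -1.01 and over S phase genes -0.56. Without any other single library no member was called. The library left out was the highest of the fl/fl tumors in 47 of 49 members, so a fall without it is partly built in.

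**Figure D5:**
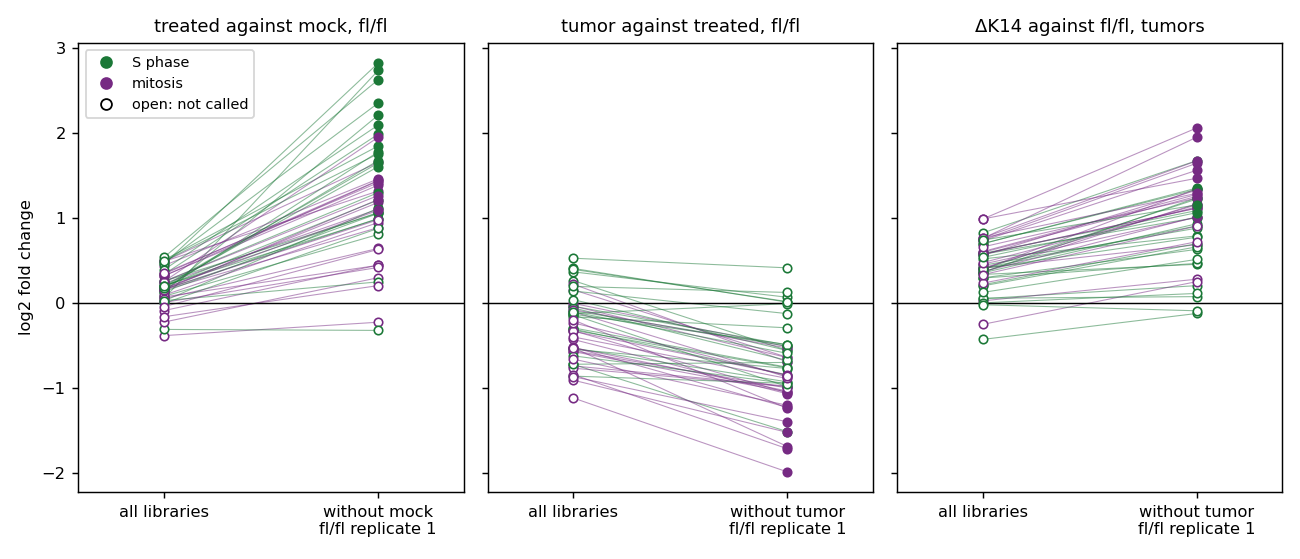
Log2 fold change (y axis) of each member with all libraries and without 1 library, in 3 comparisons, S phase genes in green and mitosis genes in purple, filled where called. With all libraries no point is filled, and without the named library 32, 13 and 27 members are called. The named library is the highest of its group in most members, so its removal shifts them together. It is the only library of each comparison whose removal gave calls.

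Tumors of ΔK14 mice against treated ΔK14 skin gave the only member called with all libraries. E2f8 (chr7:48866429-48881596, minus strand, GRCm38) was at 40.2, 20.1 and 26.9 CPM in treated and 64.9, 60.6 and 66.3 CPM in tumor cells. All tumor libraries lay above all treated libraries. The log2 difference was 1.05 ± 0.25 (SE; edgeR, adjusted p = 0.0117), and DESeq2 called this gene too. This was 1 of 49 members where 26% of 15289 genes were called, 10.5% higher and 15.5% lower. The median member stood at 0.05, against -0.03 over all genes, with 28 above and 21 below 0. The call of E2f8 was lost in a fit of all groups together and without treated ΔK14 replicate 2, where the log2 difference was 0.86. Over the alternatives and libraries left out the log2 difference of E2f8 ran from 0.86 to 1.37, and its adjusted p (edgeR or DESeq2) from 7.3e-05 to 0.173.

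With no threshold on the fold, 4 members passed, against 36.8% of all genes. Besides E2f8, Cdc20, which activates the anaphase-promoting complex (chr4:118432901-118437352, minus strand), was at 52.03, 33.7 and 41.9 CPM in treated and 91.9, 60.1 and 80.4 CPM in tumor cells, a log2 difference of 0.78 ± 0.23 (edgeR, adjusted p = 0.0288). Cenpe, a kinesin of the kinetochore (chr3:135212537-135273611, plus strand), was at 74.6, 62.9 and 66.95 and at 153, 99.6 and 96.1 CPM, a difference of 0.68 ± 0.23 (edgeR, adjusted p = 0.0428). Kif11 (chr19:37376403-37421859, plus strand) was at 109, 55.9 and 54.1 CPM in the tumors, a difference of -0.89 ± 0.31 (edgeR, adjusted p = 0.0488). E2f8, Cdc20, Cenpe and Aurka, the Aurora kinase of the spindle poles, were higher without overlap, where 28.4% of all genes were, and Kif11 lower, where 23.8% were. Aurka was at 20.5, 13.7 and 13.9 CPM in treated and 27.95, 21.6 and 22.99 CPM in tumor ΔK14 cells. Kif11 was thus lower without overlap in the tumors of both genotypes.

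Cdc6, the loader of the helicase, was at 22.6, 17.6 and 9.64 CPM in treated and 10.5, 9.62 and 7.41 CPM in tumor ΔK14 cells, a log2 difference of -0.96 ± 0.35. Mcm4, a helicase subunit, was at 152, 79.9 and 112 and at 219, 146 and 177 CPM, a difference of 0.57 ± 0.26. Neither passed the adjusted threshold. The S phase genes Mcm2, at 114, 74.2 and 86.6 CPM, and Mcm5, at 136, 89.8 and 103 CPM, overlapped with treated skin. So did Pcna at 204, 182 and 193 CPM and Rrm2 at 185, 138 and 169 CPM. Ccne1 was at 29.5, 23.1 and 18.6 CPM, Ccne2 at 38.5, 30.7 and 27.7 CPM and E2f1 at 12.97, 13.2 and 10.6 CPM, also overlapping with treated skin. Among mitosis genes Mki67 was at 675, 401 and 335 CPM, Top2a at 590.2, 369 and 402 CPM and Ccnb1 at 99.97, 45.7 and 42.7 CPM. Cdk1 was at 63.7, 30.5 and 36.3 CPM, Plk1 at 39.4, 16.7 and 16.1 CPM and Foxm1 at 38.02, 25.95 and 29.8 CPM. Replicate 1 was again the highest in each of these 6 mitosis genes.

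Without ΔK14 tumor replicate 1 the count was 4 members, E2f8 higher and Kif11, Nusap1 and Bub1b lower, where 10.9% of 16678 genes were called higher and 13.3% lower. Nusap1, a spindle protein, was at 55.8, 41.5 and 61.7 CPM in treated and 48.5, 22.7 and 22.6 CPM in tumor ΔK14 cells. Without treated ΔK14 replicate 3, Cdc6 was called lower beside E2f8, where 12.1% of 16350 genes were called higher and 17.1% lower.

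Tumors were compared with mock skin in each genotype. No member was called in fl/fl, where 4.11% of 15394 genes were (2.22% higher, 1.88% lower), or in ΔK14, where 14.3% of 15027 genes were (7.05% higher, 7.22% lower). DESeq2 called none of the members in either. At an unadjusted p under 0.05 there was 1 member in fl/fl, Cenpf, against 26.2% of all genes, and 1 in ΔK14, Cdc20, against 34.4%. The median log2 difference was -0.10 in fl/fl and 0.20 in ΔK14.

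Cenpf was at 74.3, 18.9 and 21.6 CPM in fl/fl tumors, with a log2 difference from mock of -1.49 ± 0.54 (edgeR, adjusted p = 0.136). It was lower without overlap, as was Gins2 at 32.6, 47.03 and 34.7 CPM, where 16.9% of all genes were. Ttk, a checkpoint kinase, was at 35.6, 27.1 and 14.02 CPM in mock and 25.6, 8.70 and 11.8 CPM in tumor fl/fl cells. Among S phase genes Pola1 was at 115, 47.7 and 33.5 CPM in mock fl/fl, and Mcm4 at 156, 47.7 and 40.1 CPM in mock and 184, 99.6 and 81.9 CPM in tumor fl/fl cells, and neither was separate. In ΔK14, Cdc20 was at 50.1 and 20.2 CPM in mock skin, with a log2 difference of 1.04 ± 0.43. E2f8 was at 45.2 and 16.6 CPM in mock ΔK14, a difference of 0.94 ± 0.43. Mcm4 was at 145 and 49.03 CPM in mock ΔK14, with the tumors at 219, 146 and 177 CPM. Nusap1 was at 57.7 and 42.2 CPM in mock ΔK14 and overlapped with the tumors. Aurka was at 18.9 and 14.4 CPM in mock ΔK14. Cdc20, E2f8, Mcm4 and Aurka were the members higher without overlap, where 28.6% of all genes were.

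These results also rested on the mock libraries, where replicate 1 was the highest in 48 members in fl/fl and in 49 in ΔK14. Without mock fl/fl replicate 1, 9 S phase genes and no mitosis gene rose in fl/fl tumors against mock, where 9.45% of 15636 genes were called higher. They were Rrm2, Pcna, Pola1, E2f8, Mcm5, Ccne1, Mcm10, Mcm4 and Tyms. Without mock ΔK14 replicate 1, which leaves 1 mock ΔK14 library, 27 members rose in ΔK14 tumors, 15 S phase and 12 mitosis genes, where 14.7% of 16269 genes were called higher. A lone mock library in that fit is assumed to vary like the tumors. Without the other mock ΔK14 library, 1 member was called, Cdc6, which was lower, where 8.92% of 16304 genes were called lower. Without fl/fl tumor replicate 1, Cenpf was called lower, where 0.939% of 17250 genes were.

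Tumors with and without Zfp36 were compared last. No member was called, and 0.0284% of 14067 genes were, 0.0213% higher and 0.00711% lower. The study, also with edgeR, reported far more genes that differed between these tumors. It named proliferation among the processes of genes higher without Zfp36. The source of this gap was not tested. The median log2 difference of ΔK14 from fl/fl tumors was 0.36 over S phase genes and 0.57 over mitosis genes, against -0.02 over all genes, and 46 of 49 members lay above 0. At an unadjusted p under 0.05 there were 2 members, Aurka and E2f8, against 14% of all genes, and DESeq2 called none of the members.

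Aurka (chr2:172356190-172370535, minus strand) was at 18.6, 9.01 and 6.88 CPM in fl/fl tumors and 27.95, 21.6 and 22.99 CPM in ΔK14 tumors, a log2 difference of 0.99 ± 0.37 (edgeR, adjusted p = 0.297). E2f8 was at 53.2, 27.8 and 25.2 and at 64.9, 60.6 and 66.3 CPM, a difference of 0.74 ± 0.29 (edgeR, adjusted p = 0.319). They were the members higher without overlap, 2 of 49, where 13.6% of all genes were. Kif23 was at 73.8, 28.7 and 36.1 CPM in fl/fl and 101, 60.3 and 92.9 CPM in ΔK14 tumors, a difference of 0.77 ± 0.37. Cenpe was at 113, 25.3 and 26.5 and at 153, 99.6 and 96.1 CPM, a difference of 0.99 ± 0.56. Both overlapped through fl/fl replicate 1. Fen1 was at 44.2, 16.3 and 15.1 and at 52.1, 38.3 and 39.9 CPM, and Cdc45 at 16.6, 11.3 and 8.52 and at 22.1, 14.5 and 19.8 CPM. Pcna had a log2 difference of 0.01 ± 0.18 and Mki67 one of 0.77 ± 0.52. These SEs leave room for differences of either sign.

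Without fl/fl tumor replicate 1, 27 of 49 members were higher in ΔK14 tumors, 9 S phase and 18 mitosis genes, where 7.32% of 15463 genes were called higher and 9.58% lower. The S phase genes were E2f8, Fen1, Ccne1, Uhrf1, Mcm2, Rrm1, Tk1, Mcm3 and Gins1, with log2 differences from 1.01 for Gins1 to 1.68 for Ccne1. The mitosis genes ran from 1.01 for Cenpa, the centromeric histone, to 2.06 for Cenpe, and those next below Cenpe were Plk1, Mki67, Cenpf and Cdc20. The median over mitosis genes went from 0.57 to 1.20. Leaving out any other library gave no call. The library left out was the highest of the fl/fl tumors in 47 of 49 members, while ΔK14 replicate 1 was kept. The rise is thus partly built in. Without replicate 1 in both groups 11 members were called, all higher, where 8.04% of all genes were called higher.

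The change from treated skin to tumor was set against genotype in a contrast of differences. No member was called, where 0.0118% of 17017 genes were, and DESeq2 called none of the members. The median over the members was 0.26, with 40 of 49 above 0, and 1 member had an unadjusted p under 0.05, against 13.2% of all genes. This was Aurka, with a contrast of 1.08 ± 0.45 on the log2 scale (edgeR, adjusted p = 0.327). Without fl/fl tumor replicate 1, Cenpe, Cdc20 and Aurka were called, where 7.53% of 17951 genes were. The contrast for tumor against mock skin and the one for treated against mock skin gave no call among the members, where 0% of 17388 and 0% of 17694 genes were called. At an unadjusted p under 0.05 neither gave a member, and DESeq2 called none.

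Other replication and mitosis genes were counted beside the members. Of 36 further replication genes 2 fell in fl/fl tumors against treated skin, Ticrr, which activates origins, and Timeless, a fork protein, and none was called in ΔK14. Of 46 further mitosis genes 4 fell in fl/fl tumors and 5 in ΔK14 tumors, and none rose. Of all genes tested, 10.5% were called lower in fl/fl tumors and 15.5% in ΔK14 tumors. Cdca2, Espl1, the protease separase, and Kif18a, a kinesin, were called in both. Espl1 was at 40.4, 24.1 and 30.7 CPM in treated and 20.1, 8.25 and 7.21 CPM in tumor fl/fl cells, and at 55.4, 33.4 and 24.9 and at 17.9, 11.8 and 13.3 CPM in ΔK14. In tumors against mock skin, 1 of these mitosis genes, Ncapd2 of condensin, fell in ΔK14. None was called in the comparisons of treated with mock skin or of genotypes.

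Several genes that act before S phase were called. Of 33 genes around the restriction point 5 rose and 7 fell in ΔK14 tumors against treated skin, beside 10.5% and 15.5% of all genes. In fl/fl, of 31 tested 1 rose and 7 fell, beside 7.5% and 10.5% of all genes. Cdkn1a, the inhibitor p21, rose in both. It was at 67.5, 75.2 and 99.7 CPM in treated and 219, 383 and 487 CPM in tumor ΔK14 cells, a log2 difference of 2.07 ± 0.29 (edgeR, adjusted p = 0.00156). In fl/fl it was at 60.7, 70 and 74.5 and at 224, 291 and 316 CPM, a difference of 1.99 ± 0.21 (edgeR, adjusted p = 0.00169).

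Ccnd1 rose in ΔK14 tumors from 118, 92.8 and 90.6 to 342, 312 and 299 CPM, a log2 difference of 1.57 ± 0.18 (edgeR, adjusted p = 0.000769). In fl/fl the difference was 1.14 ± 0.75, which was not called. E2f7, the partner of E2f8 among repressive E2Fs, was at 16.7, 13.7 and 17.2 CPM in treated and 42.5, 53.2 and 62.3 CPM in tumor ΔK14 cells, and was called higher. In fl/fl tumors E2f7 was at 29.6, 18.5 and 15.1 CPM and was not called. Cdkn2a, which encodes p16 and p19ARF, was at 1.44, 0.783 and 0.338 CPM in treated and 12.1, 23.8 and 35.9 CPM in tumor ΔK14 cells. It was at 34.1, 1.68 and 3.93 CPM in fl/fl tumors, again with replicate 1 apart, and did not pass the filter on low counts against treated fl/fl skin. Cdkn2b, its neighbor, was at 7.36, 5.87 and 8.12 and at 10.3, 20.5 and 25.8 CPM in ΔK14, and was called higher.

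Ccnd2, Mycn, E2f2, Cdkn1b and Cdc25a fell in the tumors of both genotypes. Mycn, a Myc factor, was at 24.7, 13.2 and 18.7 CPM in treated and 2.01, 2.44 and 1.97 CPM in tumor fl/fl cells, and at 40.2, 17.6 and 15.2 and at 2.68, 2 and 1.71 CPM in ΔK14. E2f2, an activating E2F, was at 24.3, 17.8 and 25.9 and at 5.02, 2.44 and 1.64 CPM in fl/fl, and at 38.9, 21.5 and 17.6 and at 5.81, 2.72 and 2.09 CPM in ΔK14. Both were high in mock replicate 1, with E2f2 at 42.1, 6.87 and 6.28 CPM and Mycn at 48.2, 2.16 and 0.967 CPM in mock fl/fl. Skp2 and Cdkn2c fell in ΔK14, and Wee1 and Cdkn2d in fl/fl. Myc was not called in any comparison, with 171, 161 and 98 CPM in fl/fl and 142, 112 and 121 CPM in ΔK14 tumors. The differences in these calls between genotypes were not called in the contrast. Hair matrix genes fell beside them in tumors against treated skin, 13 of 15 tested in fl/fl and 13 of 14 in ΔK14. Of all genes, 10.5% and 15.5% were called lower.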

How the data were processed

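RNA-seq was measured in sorted epidermal cells. The authors deposited 1 table of raw counts per gene, with 18 columns. Libraries were made with the Ovation SoLo kit. The submitters' processing notes name Trimmomatic 0.36, STAR 2.5.3, HTSeq 0.9.1, DESeq2 and mm10, with no roles, and the use of strand is not given in the sources used here. Reads of overlapping genes may therefore be shared, and PCR duplicates are not independent molecules.

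Each comparison was fitted on its own groups in R 4.3.3 with edgeR 4.0.16 (filterByExpr, TMM, quasi-likelihood F test, two-sided, Benjamini-Hochberg over all genes tested). A call needed an adjusted p under 0.05 and a fold over 2. DESeq2 1.42.0 was an alternative. Levels are CPM on TMM library sizes, and means of log2 CPM used a prior count of 2. Exon lengths and 3′ untranslated regions came from GENCODE M21. Identical columns of mock ΔK14 were counted as 1 library. Other pairs within a group had equal counts in at most 2.17% of genes. The fits were tested on simulated data. The members and gene lists were chosen with earlier results of these data known. Values per library are given for 13 fixed members and for the 3 of each class with the smallest p in each comparison. Alternatives were RLE scaling, other filters, 1 fit of all groups, a replicate block and each library left out.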

Additional observations from a re-analysis of the deposited data

How the results depend on the processing

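Of the counts of called members under other settings, 157 stayed within 1.5 times the count with all libraries and 29 did not. With all libraries the count was above 0 only in ΔK14 tumors against treated skin. Elsewhere a count stayed only if it remained 0, so most of the 157 repeat a count of 0. The 24 group levels under RLE scaling or a prior count of 0.5 moved by less than 1 SD. Without the low-count filter 1 member was called in fl/fl tumors against treated skin (Cenpf, lower), 1 in fl/fl tumors against mock (Cenpf, lower), 2 in ΔK14 tumors against mock (E2f8 and Cdc20, higher) and 2 between tumors (Cenpe and Aurka, higher). Of all genes in these fits, 7.13% were called lower in fl/fl tumors against treated skin and 4.37% against mock, 6.5% were called higher in ΔK14 tumors against mock and 2.35% between tumors. One fit of all groups gave 0 calls in ΔK14 tumors against treated skin, and no fold threshold gave 4. Counting the identical columns as 2 libraries gave 1 call in ΔK14 tumors against mock (Cdc20, higher), where 10.9% of all genes were called higher. RLE scaling, DESeq2 and a mean count of at least 10 moved no count beyond 1.5 times.

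With each library left out in turn, calls ranged from 0 to 32 in treated against mock fl/fl, from 0 to 27 in ΔK14 tumors against mock, from 0 to 4 in ΔK14 tumors against treated, from 0 to 27 between tumors, from 0 to 9 in fl/fl tumors against mock, from 0 to 13 in fl/fl tumors against treated and from 0 to 3 in the contrast of tumor against treated skin with genotype. The libraries behind the upper values were mock replicate 1 and tumor replicate 1. The cause was not tested beyond the markers given above.

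Leaving replicate 1 out of every group was added after the members were seen to be highest in it. This choice rests on the measured outcome, so it is a description. In treated against mock skin 12 members were called in fl/fl and 14 in ΔK14, all higher, beside 5.63% and 3.45% of all genes called higher. In fl/fl tumors against mock 14 were called, 12 higher and 2 lower, beside 13.8% and 17% of all genes. In ΔK14 tumors against mock 22 were called, all higher, beside 17.5%. In fl/fl tumors against treated skin 7 were called, all lower, beside 11.2%. In ΔK14 tumors against treated skin 3 were called, 1 higher and 2 lower, beside 11.1% and 15%. Between tumors 11 were called, all higher in ΔK14, beside 8.04%. In the contrasts with genotype 3 were called for tumor against treated and 4 for tumor against mock, all higher, beside 2.66% and 4.96%.

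Same-numbered libraries did not deviate together in every pair of any comparison with 3 pairs, and correlations of deviations ran from -0.546 to 0.782. The 2 pairs of mock libraries both correlated, at 0.782 and 0.569, and so did those of treated with mock ΔK14, at 0.569 and 0.141. Mock ΔK14 had only 2 libraries, whose deviations from their mean mirror each other. The 2 correlations of each of these comparisons are therefore not independent. The labels give a shared number and no shared day or batch, and whether same-numbered libraries share one was not tested. With the replicate number as a block, 1 member was called in fl/fl tumors against treated skin (Cenpf, lower) and 1 between mock groups (Mki67, lower), beside 6.41% and 0.201% of all genes called lower, and no other count of called members changed. Counts of at most 9617985 a library limit the precision of members with few reads.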

Other observations

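The balance between the classes also differed between libraries. Mean log2 CPM of mitosis genes minus that of S phase genes was 0.21, 0.87 and 0.73 in mock fl/fl and 0.29 and 0.30 in mock ΔK14. In treated skin it was 0.47, 0.22 and 0.19 in fl/fl and 0.02, 0.22 and 0.40 in ΔK14. In fl/fl tumors it was 0.29, -0.35 and -0.08, and in ΔK14 tumors 0.37, 0.07 and 0.08. Fl/fl tumor replicates 2 and 3 were the only libraries in which S phase genes stood above mitosis genes. These genes were first compared in this way after their values were seen.

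Among S phase genes in mock skin, Gins2 and Rfc3 had the smallest ratios of replicate 1 to the mean of the others. These were 0.946 and 1.39 in fl/fl and 1.56 and 1.01 in ΔK14, where E2f1 also had 1.56. Rfc3 did not keep apart in fl/fl tumors, with a ratio of 1.94 beside 1.85 for Mcm7. Gins2 was at 33.9 to 54.3 CPM over the mock libraries, and its highest mock value was in fl/fl replicate 3, the library with the lowest mean of S phase genes. Gins2 and Rfc3 were singled out after their values were seen.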
